A study of Mus musculus with 14 samples.

Results

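The Toll-like receptors of the mouse were examined as 10 named genes, Tlr1 to Tlr9 and Tlr13, among 21440 protein-coding genes whose start could be placed on GRCm38. All 10 were found in the annotation, and a receptor was counted as called in a library where a deposited H3K4me3 peak lay within 1 kb of its gene start. H3K4me3, trimethylation of lysine 4 on histone H3, was mapped by CUT&Tag, in which an antibody directs a transposase to cut and tag the DNA beside the mark. The sample titles say CUT&RUN, while the protocol in the labels and the study's methods describe CUT&Tag. The cells were LSK cells, the Lin-Sca1+cKit+ hematopoietic stem and progenitor cells of the bone marrow, sorted by flow cytometry after magnetic enrichment. They came from C57BL/6J mice, described as male in the study's methods, that were fed a high-fat diet (HFD-LSK, 3 libraries) or a low-fat control diet (LFD-LSK, 4 libraries), which the series description calls normal-fat. The mice entered the diets soon after weaning and stayed on them for several months, and the labels name no other allele or agent. The study added a second cohort that the labels do not mark, so no within-cohort values could be given. Whether a library was 1 mouse or a pool was not stated in the sources used here, so the spread between libraries may be partly technical. A matched IgG library was listed for each of the 7, and no IgG peak list was analysed here.

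Toll-like receptors are membrane proteins that bind molecules of microbes and damaged cells and signal through adapters such as MyD88 to inflammatory genes. Tlr1, Tlr2, Tlr4, Tlr5 and Tlr6 act mainly at the cell surface, and Tlr3, Tlr7, Tlr8, Tlr9 and Tlr13 act in endosomes, where they bind nucleic acids. H3K4me3 collects at the starts of active or poised genes and is strongest where the promoter is rich in CpG. Hematopoietic progenitors can respond to microbial products through these receptors, and the study asked whether the obesogenic diet altered the mark in them.

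H3K4me3 was called at 5 of the 10 receptor starts in at least 1 library and at 5 in none, beside 51.3% of all coding starts called in at least 1. Tlr4 was called in all 3 HFD-LSK lists and in 0 of 4 LFD-LSK lists, and no other receptor had that pattern. Tlr2 had calls in 3 of 3 HFD-LSK lists and 2 of 4 LFD-LSK lists, Tlr3 in 2 of 3 and 0 of 4, and Tlr5 in 1 of 3 and 0 of 4. A peak within 1 kb of the Tlr6 gene start was called in all 7 lists, but it covers the start of a neighbouring gene and not that of Tlr6. Tlr1, Tlr7, Tlr8, Tlr9 and Tlr13 had no peak at the start or in the gene body in any list.

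**Figure D1:**
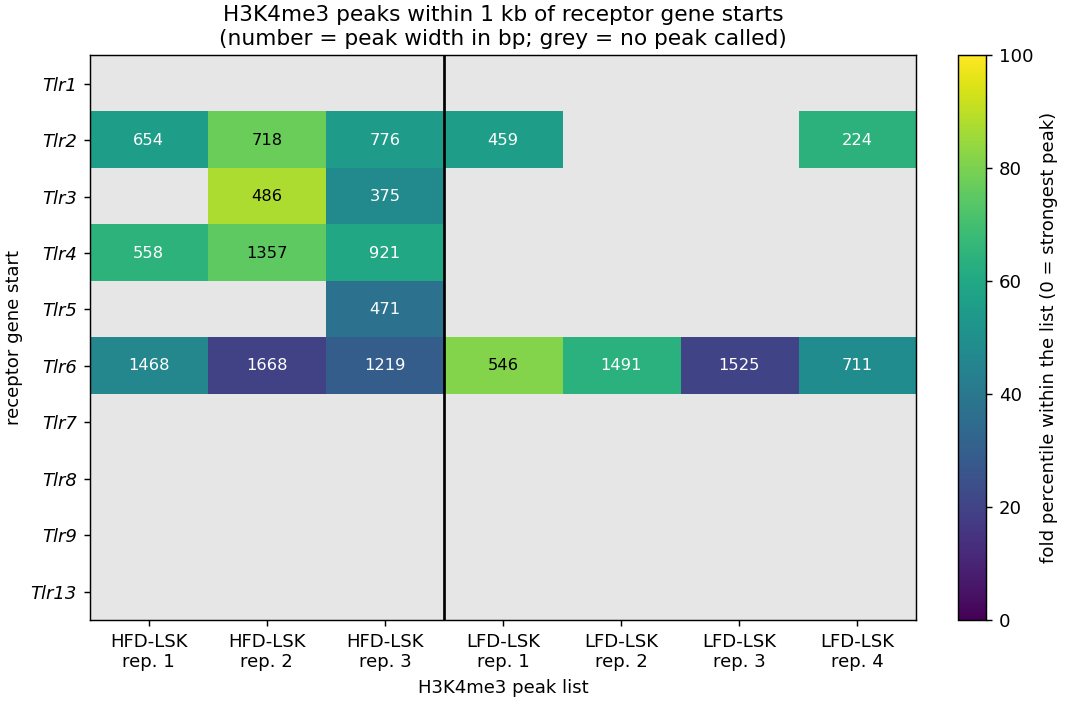
Receptor gene starts (rows) in the 7 H3K4me3 peak lists (columns, HFD-LSK left of the line and LFD-LSK right). Colour gives the fold percentile of the peak within its list, 0 being the strongest, the number in a cell is the peak width in bp, and grey is no call. Tlr4 is coloured in the 3 HFD-LSK columns alone, Tlr2 in 5 columns and Tlr6 in all 7.

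The lists differed in what they could call. They held 9186, 13094 and 11977 peaks in HFD-LSK replicates 1 to 3, and 7447, 10572, 10352 and 6921 in LFD-LSK replicates 1 to 4. Fragments at each summit were solved from the fold and p-value of the peak, and the lowest one that a list called was divided by the mean coverage of its library. This limit was 79.7, 29.8 and 34.5 multiples in the HFD-LSK lists and 98.3, 58.1, 60.0 and 101 in the LFD-LSK lists. The 2 lowest limits were both HFD-LSK, the 2 highest were both LFD-LSK, and HFD-LSK replicate 1 lay above LFD-LSK replicates 2 and 3. The mean limits, 48.0 and 79.4, differed with p = 0.171 by a two-sided exact permutation test, short of the threshold. The same lists called 39.02%, 49.2% and 43.0% of coding starts in HFD-LSK and 32.8%, 42.7%, 40.8% and 28.5% in LFD-LSK. The number of receptors called was 3, 4 and 5 in the HFD-LSK lists and 2, 1, 1 and 2 in the LFD-LSK lists.

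Across the genome, partial calls leaned to one diet. Of 6665 coding starts called in some but not all lists, for 83.2% the called share of lists was higher in HFD-LSK than in LFD-LSK, and so it was for all 4 receptors of this kind (Tlr2, Tlr3, Tlr4 and Tlr5). Calls in at least 1 HFD-LSK list and no LFD-LSK list were made at 4.65% of coding starts, and at 3 of the 10 receptors (Tlr3, Tlr4 and Tlr5). The reverse, at least 1 LFD-LSK list and no HFD-LSK list, was seen at 0.513% of coding starts and at 0 receptors. With all lists held to peaks of at least 101 multiples, the highest of the limits, 72.2% of 5673 such starts had the higher share in HFD-LSK. Calls in HFD-LSK lists with none in LFD-LSK then stood at 1.68% of coding starts and the reverse at 2.02%, Tlr3 and Tlr5 lost all their calls, and Tlr4 was the 1 receptor left among the former. With the 6921 strongest peaks of each list, the number in the shortest, the higher share was in HFD-LSK for 49.0% of 7605 starts, and calls in 1 diet alone stood at 3.17% (HFD-LSK) and 3.02% (LFD-LSK), with Tlr3, Tlr4 and Tlr5 among the former.

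The labelled cell type was checked against marker genes. Of 10 LSK markers 9 were called in at least 1 list (51.3% of coding starts) and 5 in all 7 (20.2%), among them Kit, which encodes the stem cell factor receptor used in the sort, and Cd34. Ly6a, which encodes Sca-1, was called in 0 lists. Of 9 myeloid markers only Lyz2 was called, in 1 LFD-LSK list, and Itgam, Ly6g, Csf1r, Elane and Mpo were called in none. The 9 T and B cell markers and the 4 non-blood markers were called in 0 lists, as were 48.7% of coding starts. Among erythroid genes, Klf1, a transcription factor of the lineage, had calls in 3 of 3 HFD-LSK lists and 2 of 4 LFD-LSK lists, Epor, the erythropoietin receptor, in 2 of 3 and 1 of 4, and the globin gene Hbb-bt in 0 lists. The part of these erythroid genes in the receptor calls was not tested.

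Tlr4, the receptor for bacterial lipopolysaccharide, lies on chr4:66827551-66846581 of GRCm38 on the plus strand. No other coding start lay within 423 kb of its own. Its peak was 558 bp, 1357 bp and 921 bp wide in HFD-LSK replicates 1, 2 and 3, a mean of 945 ± 400 bp (SD, n = 3). The widest peak was that of replicate 2 and the narrowest that of replicate 1. Relative to the gene start the peaks began at 41, −150 and −114 bp, and the summits lay 327, 366 and 593 bp into the gene. By fold enrichment over its own background the peak ranked 5936 of 9186, 9868 of 13094 and 7188 of 11977, where rank 1 is the strongest. On a scale from 0 (strongest) to 100 (weakest) these are fold percentiles of 64.6, 75.4 and 60.0, a mean of 66.7 ± 7.88 (SD, n = 3). Tlr4 thus ranked below the middle of each HFD-LSK list. Its summits held 33, 37 and 10 fragments, which are 164, 138 and 86.3 multiples of the mean coverage. All 3 lay above the lowest summit called in their own list.

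In the LFD-LSK lists the nearest peak to the Tlr4 start was 1222 kb away in replicate 2 and more than that in replicates 1, 3 and 4. A summit as high as the median at Tlr4, 138 multiples, would hold 29.5, 23.8, 18.4 and 12.3 fragments in LFD-LSK replicates 1 to 4. The fewest fragments at any called summit in those lists were 21, 10, 8 and 9. A summit of 138 multiples was thus above the limit in all 4. Those fewest are for the whole list. In LFD-LSK replicates 1 to 4, 73.9%, 30.6%, 42.6% and 65.01% of peaks were at the background floor. Whether a summit above the limit would have been called at Tlr4 was not tested. A summit as low as the lowest at Tlr4, 86.3 multiples, would have been below the limit of LFD-LSK replicates 1 and 4, and above that of replicates 2 and 3, where 6.23% and 9.76% of peaks were at or below it. These heights use the mean coverage of each library, which counts fragments in peaks as well as between them.

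Tlr4 was singled out from this contrast in the study, so its calls are given as a description. Across the 10997 coding starts called in at least 1 list, the two-sided Fisher's exact test of 3 against 4 lists cannot give a p-value below 0.0286, the value for Tlr4, and no start passed the Benjamini-Hochberg adjustment (the adjusted p-value for Tlr4 was 1). Calls in every HFD-LSK list and no LFD-LSK list were made at 33 coding starts, 0.154% of those placed, and calls in every LFD-LSK list and no HFD-LSK list at 0 (0%). Single libraries moved both counts. Without HFD-LSK replicate 2 they were 34 and 23, without HFD-LSK replicate 1 317 and 0, without LFD-LSK replicate 2 160 and 1, and without LFD-LSK replicate 3 87 and 0. Tlr4 was among the former in each case. With peaks of at least 101 multiples of mean coverage alone, Tlr4 remained in 2 of the 3 HFD-LSK lists. With the 6921 strongest peaks of each list, Tlr4 remained in 1 of the 3, replicate 1.

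Among the other 32 starts with the 7 calls of Tlr4, the 3 nearest to it in fold percentile were Il11ra1, Cox6b1 and 2610002M06Rik. Il11ra1, a chain of the interleukin-11 receptor with near-identical copies in the mouse genome, had percentiles of 70.8, 65.4 and 56.8. Whether reads from the copies entered its calls was not tested. Cox6b1, a subunit of cytochrome c oxidase, had percentiles of 82.6, 69.1 and 69.3, and 2610002M06Rik had 88.8, 72.2 and 58.8. Euclidean distances from Tlr4 over the 3 HFD-LSK lists were 12.1, 21.2 and 24.4 percentile points. By mean percentile Tlr4 was 19th strongest of the 33 starts with this pattern. Pgk1, a glycolytic enzyme used by all cells, was also among the 33 (named after its values were seen).

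Tlr2, which pairs with Tlr1 or Tlr6 to bind bacterial lipopeptides, lies on chr3:83836272-83841824 on the minus strand. Its peak was 654 bp, 718 bp and 776 bp wide in HFD-LSK replicates 1 to 3, a mean of 716 ± 61.0 bp (SD, n = 3). In the 2 LFD-LSK lists that called it the peak was 459 bp in replicate 1 and 224 bp in replicate 4. All 3 HFD-LSK widths were greater than both LFD-LSK widths, in lists whose median peak widths were 868, 1198 and 757 bp in HFD-LSK and 741 and 525 bp in LFD-LSK replicates 1 and 4. The fold percentile was 56.2, 77.4 and 54.8 in HFD-LSK and 56.2 and 64.1 in LFD-LSK replicates 1 and 4, so the within-list strength overlapped between diets. Summits held 36, 54 and 14 fragments in HFD-LSK and 46 and 18 in LFD-LSK. In multiples of mean coverage these were 179, 201 and 121 in HFD-LSK and 215 and 202 in LFD-LSK. The highest HFD-LSK value and the lower LFD-LSK value, 201.4 and 202.1, were about equal. The LFD-LSK values come only from the 2 lists with a call. The 2 LFD-LSK lists without a call, replicates 2 and 3, had lower limits than the 2 with one. There a summit as low as the lowest at Tlr2, 121 multiples, would hold 20.8 and 16.1 fragments, against the fewest called of 10 and 8. Those fewest are for the whole list, and only 30.6% and 42.6% of its peaks were at the background floor. Whether such a summit would have been called at Tlr2 was not tested. The difference in calls had a Fisher's exact p-value of 0.429 (two-sided, 3 against 4 lists) and an adjusted p-value of 1.

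**Figure D2:**
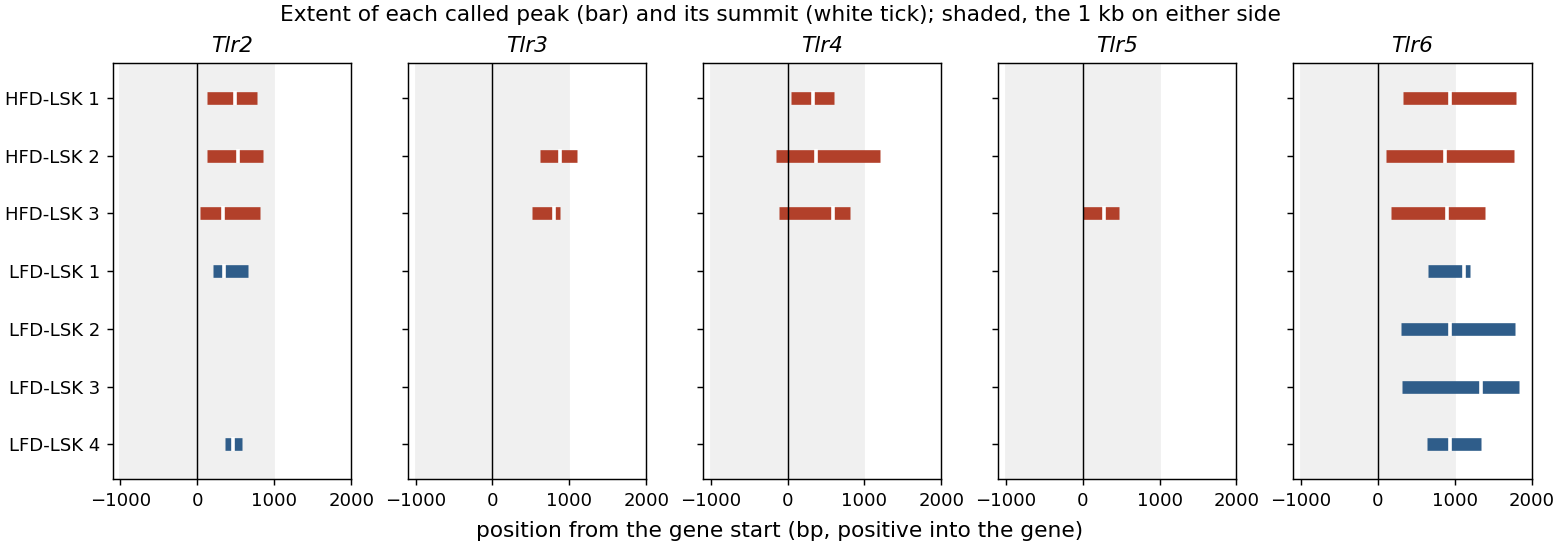
Extent of each called peak (bars, HFD-LSK red and LFD-LSK blue) and its summit (white tick) around the start of the 5 receptors with a call; the x axis is the distance from the gene start in bp, positive into the gene, and rows are the 7 lists. Peaks of Tlr2 and Tlr4 begin near the gene start, those of Tlr3 begin 613 and 509 bp into the gene, and those of Tlr6 reach beyond 1000 bp into it.

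Tlr3, the endosomal receptor for double-stranded RNA, lies on chr8:45395665-45411075 on the minus strand. It was called in HFD-LSK replicates 2 and 3, with widths of 486 and 375 bp. The peaks lay 613 and 509 bp into the gene, at a RefSeq transcript start 695 bp inside the gene boundary. Within its list the peak was at percentile 87.6 in replicate 2 and 47.4 in replicate 3, so it was among the weakest peaks of the one and near the middle of the other. The summits held 14 and 8 fragments, 52.2 and 69.1 multiples of mean coverage. Both heights were below the lowest summit called in HFD-LSK replicate 1 and in LFD-LSK replicates 1 and 4, and the lower one was below the limit of all 5 lists without a call. Fisher's exact p-value was 0.143 (two-sided, adjusted p-value 1).

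Tlr5, the receptor for bacterial flagellin, lies on chr1:182954752-182976044 on the plus strand. Its one peak, in HFD-LSK replicate 3, was 471 bp wide and began at the gene start. It ranked 4531 of 11977, percentile 37.8, the strongest rank among the receptors called in that list other than Tlr6. Its summit held 9 fragments, or 77.7 multiples of mean coverage, below the lowest called summit of HFD-LSK replicate 1 and of LFD-LSK replicates 1 and 4. A summit of that height would hold 20.8 fragments in HFD-LSK replicate 2, where the fewest called were 8, and 13.4 and 10.4 in LFD-LSK replicates 2 and 3, where the fewest were 10 and 8. None of these 3 lists called it. The fewest are for the whole list, and whether a summit of that height would have been called at Tlr5 was not tested. Fisher's exact p-value was 0.429 (two-sided, adjusted p-value 1).

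Tlr6, which pairs with Tlr2, lies on chr5:64953092-64970942 on the minus strand. The peak near its gene boundary was called in all 7 lists, as were 20.2% of coding starts. It was 1468, 1668 and 1219 bp wide in HFD-LSK and 546, 1491, 1525 and 711 bp in LFD-LSK replicates 1 to 4, means of 1452 ± 225 (SD, n = 3) and 1068 ± 512 (SD, n = 4). The median peak widths of the lists were 868, 1198 and 757 bp, and 741, 961, 805 and 525 bp. The width difference of 383 bp was 209 bp without LFD-LSK replicate 1. As a width percentile, with 0 the widest, the difference was −13.1 points (exact permutation p = 0.629, two-sided), and −0.184 without that replicate. The fold percentile was 46.3, 19.7 and 29.4 in HFD-LSK and 81.6, 63.9, 20.6 and 48.8 in LFD-LSK, means of 31.8 ± 13.5 (SD, n = 3) and 53.7 ± 25.8 (SD, n = 4). The diets overlapped in both measures. The exact permutation test over the 35 splits gave a p-value of 0.229 for the percentile (adjusted 0.955 over 4332 starts called in all 7 lists) and 0.343 for the width (adjusted 0.725). Among those 4332 starts, 3.30% ranked nearer the top in each HFD-LSK list than in each LFD-LSK list and 1.62% farther from it, and 6.69% were wider in each and 0% narrower; Tlr6 was in none of these sets.

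This peak could not be assigned to Tlr6. The start of Fam114a1, on the opposite strand, lies 867 bp away inside the same window, and in all 7 lists the peak taken for the 2 genes was the same. In all 7 lists the peak spanned the Fam114a1 start and began 110 to 651 bp inside the Tlr6 gene boundary, so it did not cover the Tlr6 gene start. The RefSeq transcript starts of Tlr6 lie 10894 and 11776 bp inside the gene boundary. At those starts a peak was called in HFD-LSK replicate 3 alone, 794 bp wide, at percentile 55.5, with a summit of 8 fragments (69.1 multiples of mean coverage). It was the one peak found in the body of any of the 10 receptors outside the windows at their starts. With transcript starts in place of gene starts, Tlr6 thus had the calls of Tlr5.

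**Figure D3:**
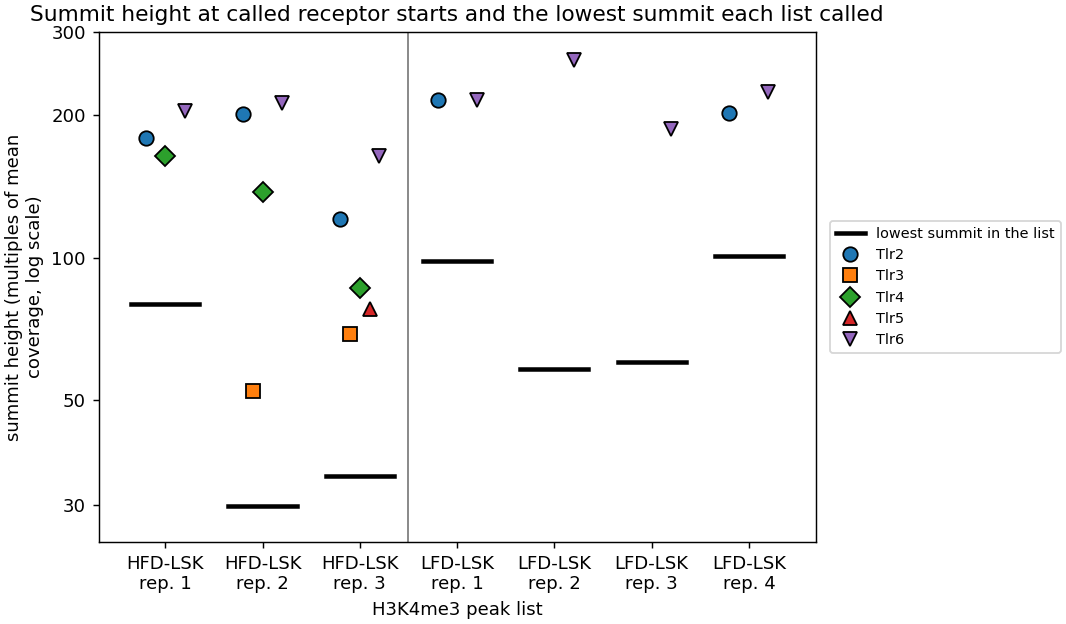
Height of each called receptor summit over the mean coverage of its library, as multiples (y axis, log scale) in the 7 lists (x axis), with the lowest summit that each list called as a black bar. Tlr3 appears in the lists with bars at 29.8 and 34.5, Tlr5 in the latter alone, Tlr4 also in HFD-LSK replicate 1, and the peak within 1 kb of the Tlr6 gene start lies at 164 or higher in every list.

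No peak was called at Tlr1 (chr5:64924680-64933600), the other partner of Tlr2, or at the 4 endosomal receptors Tlr7 (chrX:167303380-167330574), Tlr8 (chrX:167241123-167264329), Tlr9 (chr9:106222598-106226876) and Tlr13 (chrX:106143275-106160493). Tlr7 and Tlr8 bind single-stranded RNA, Tlr9 unmethylated CpG DNA and Tlr13 bacterial ribosomal RNA. The nearest peak to the Tlr9 start was 17.5 to 18.8 kb away in the 7 lists. On either side of Tlr9 the start of Twf2, an actin-binding protein, was called in all 7 lists and that of Alas1, the first enzyme of heme synthesis, in 6, so calls were made in this stretch of the chromosome in both diets. Prps2, the coding neighbour of Tlr7 on one side, had calls in 3 of 3 HFD-LSK lists and 1 of 4 LFD-LSK lists, and Pgk1, next to Tlr13, in 3 of 3 and 0 of 4. On the other sides, Tmsb4x, nearer to Tlr8 than to Tlr7, had no peak within 1 kb of the start used in any list. That start lay 50.85 kb from the start of Tlr8. On the same side, a peak lay 53.4 kb from the Tlr8 start in HFD-LSK replicate 2 and 55.1 kb in LFD-LSK replicate 2. Whether these peaks belong to Tmsb4x was not tested. Atp7a, near Tlr13, had calls in 2 of 3 HFD-LSK lists and 1 of 4 LFD-LSK lists. These neighbours were named after their values were seen. Of 3 X-linked receptors 0 were called. On the X chromosome, of which a male cell has a single copy, 18.2%, 34.7% and 25.03% of coding starts were called in the HFD-LSK lists and 11.5%, 23.7%, 17.3% and 9.53% in the LFD-LSK lists. The autosomes had 40.0%, 49.9% and 43.8%, and 33.8%, 43.6%, 41.9% and 29.4%. A missing call means only that no peak was listed, and does not by itself show an absence of the mark. Tlr11 and Tlr12, the other mouse receptors of the family, had 0 calls as well.

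Promoter sequence was compared next, since it was not used to choose the genes. RefSeq promoter windows of 300 bases, 250 before and 50 after a transcript start, were given for 8 of the 10 receptors, not for Tlr4 and Tlr7. The stretches below are printed so that windows with a call in 1 list (Tlr5 and Tlr6, both in HFD-LSK replicate 3) can be read beside windows with none (Tlr1, Tlr8, Tlr9 and Tlr13). They are RefSeq GRCm38.p6 sequence before the start, 5′ to 3′ on the gene's strand, kept to stretches outside annotated exons, with each CpG in capitals. The stretches held 1 CpG at Tlr5 and 4 at Tlr6, and 1, 1, 0 and 4 at Tlr1, Tlr8, Tlr9 and Tlr13. They were 150 bases at Tlr1, 208 at Tlr5, 179 at Tlr13 and 250 at Tlr6, Tlr8 and Tlr9. Because the lengths differ, these counts were not compared between called and uncalled receptors. Tlr1 is chr5:64933601-64933750 (minus), Tlr5 chr1:182954538-182954745 (plus), Tlr6 chr5:64959167-64959416 (minus), Tlr8 chrX:167264330-167264579 (minus), Tlr9 chr9:106222348-106222597 (plus) and Tlr13 chrX:106143025-106143203 (plus).
Tlr1: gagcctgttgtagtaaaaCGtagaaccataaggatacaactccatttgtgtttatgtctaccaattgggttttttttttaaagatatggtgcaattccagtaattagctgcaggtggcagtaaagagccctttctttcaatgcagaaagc
Tlr5: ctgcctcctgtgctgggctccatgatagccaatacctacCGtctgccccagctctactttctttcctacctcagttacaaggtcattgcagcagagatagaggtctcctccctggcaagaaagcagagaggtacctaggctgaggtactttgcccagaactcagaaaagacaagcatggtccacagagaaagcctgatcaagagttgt
Tlr6: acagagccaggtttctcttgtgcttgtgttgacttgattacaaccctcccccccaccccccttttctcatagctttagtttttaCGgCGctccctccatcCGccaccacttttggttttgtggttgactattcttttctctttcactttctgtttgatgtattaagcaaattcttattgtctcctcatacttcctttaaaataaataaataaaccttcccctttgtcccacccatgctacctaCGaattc
Tlr8: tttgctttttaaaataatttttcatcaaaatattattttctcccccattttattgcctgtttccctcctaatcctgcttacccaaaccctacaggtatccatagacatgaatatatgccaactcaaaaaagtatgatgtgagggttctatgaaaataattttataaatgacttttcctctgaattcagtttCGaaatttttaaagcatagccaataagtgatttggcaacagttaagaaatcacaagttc
Tlr9: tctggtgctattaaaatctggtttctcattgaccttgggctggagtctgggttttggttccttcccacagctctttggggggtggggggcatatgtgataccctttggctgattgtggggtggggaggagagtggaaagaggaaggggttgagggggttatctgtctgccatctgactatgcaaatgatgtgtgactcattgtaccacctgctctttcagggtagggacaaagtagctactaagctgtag
Tlr13: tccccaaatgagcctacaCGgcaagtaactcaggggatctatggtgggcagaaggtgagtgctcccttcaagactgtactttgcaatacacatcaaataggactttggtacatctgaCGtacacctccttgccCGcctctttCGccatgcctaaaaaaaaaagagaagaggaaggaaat

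The full windows held 11 CpG at Tlr2, 10 at Tlr3 and 8 at Tlr5, and 5 and 7 at the 2 transcript starts of Tlr6. Those without a call held 0 at Tlr9, 1 at Tlr8, 5 at Tlr13, and 3 and 9 at the 2 starts of Tlr1. The ranges of called and uncalled receptors overlapped. All of these windows held fewer CpG than the median of 13 over 21263 coding windows; Tlr2, the highest, had more CpG than 45.3% of them. Among these 8 receptors at their transcript starts, Tlr2 had calls in 5 lists, Tlr3 in 2, and Tlr5 and Tlr6 in 1; Tlr4, with calls in 3, has no window here.

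Across all coding windows the share with a peak within 1 kb in at least 1 list was 3.54% for 0 to 2 CpG, 14.8% for 3 to 5, 35.7% for 6 to 10, 75.9% for 11 to 20 and 88.6% for 21 or more. The share called in all 7 lists was 0.469%, 1.95%, 7.74%, 25.4% and 44.3% in the same order. The receptor windows lie in the classes with few CpG or, for Tlr2, at the low edge of the class from 11 to 20. Windows called in some but not all lists were 3.07%, 12.8%, 28.0%, 50.5% and 44.36% in the same order. They outnumbered those called in all 7 in every class, though barely in the last (44.26% in all 7).

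**Figure D4:**
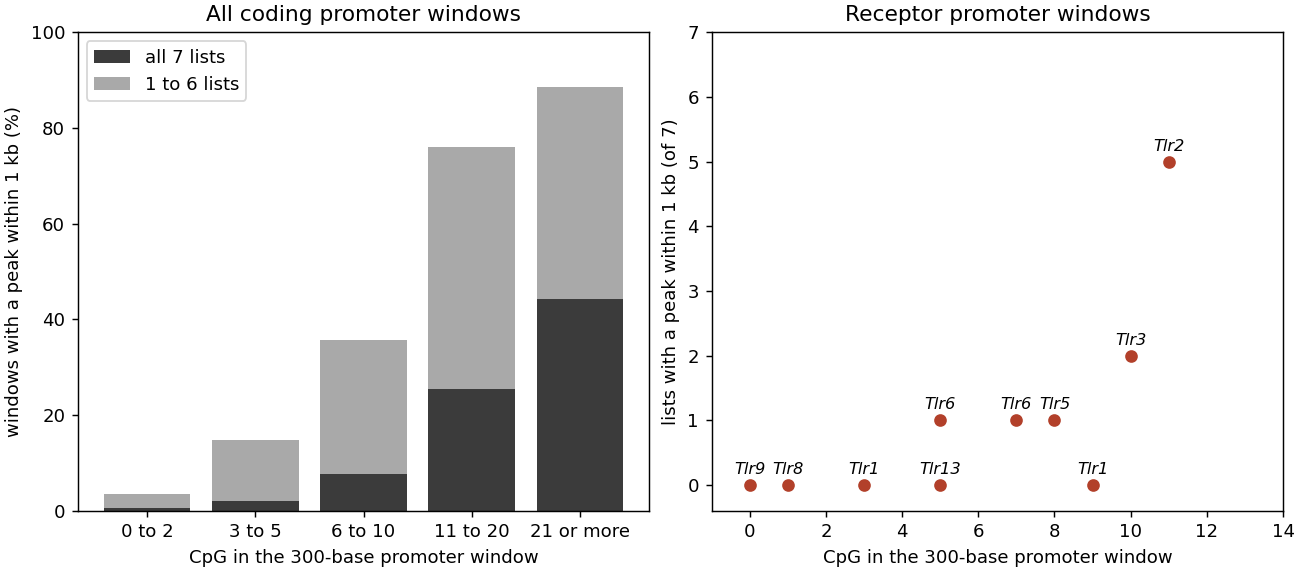
Left, share of coding promoter windows with a peak within 1 kb in all 7 lists (dark) or 1 to 6 lists (light) by the number of CpG in the window, rising from 3.54% to 88.6% in total. Right, the receptor windows by CpG count (x axis) and number of lists with a peak within 1 kb (y axis), with Tlr2 at 11 CpG and 5 lists and Tlr9 at 0 and 0.

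The partners of the receptors were taken from 2 lists, beside 51.3% of coding starts called in at least 1 list and 20.2% in all 7. Of 15 adapters and kinases of the pathway 14 were called in at least 1 list and 6 in all 7, and Sarm1, an inhibitory adapter, was the one called in none. Their median was 6 of 7 lists, beside 0.5 for the receptors and 1 for all coding starts. Of 7 co-receptors and chaperones 5 were called in at least 1 list, and Lbp, the lipopolysaccharide-binding protein of serum, and Cd36, a scavenger receptor, in none. Neither list had a gene called in all HFD-LSK and no LFD-LSK lists, or the reverse, beside 0.154% and 0% of coding starts. Of the partners of Tlr4 itself, Cd14, which hands lipopolysaccharide to the receptor, had calls in 2 of 3 HFD-LSK lists and 4 of 4 LFD-LSK lists, and Ly96, which encodes its co-receptor MD-2, in 2 of 3 and 1 of 4 (both named after their values were seen).

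Of 13 innate sensors outside the family 5 were called in at least 1 list (51.3% of coding starts) and 4 in all 7 (20.2%), and 0 in all HFD-LSK and no LFD-LSK lists (0.154%). Those called in no list were Nod2, Nlrp3, Nlrc4, Aim2, Clec7a, Clec4e, Clec4d and Clec4n, most of them known from mature myeloid cells. The remaining sensor, Ifih1, a sensor of double-stranded RNA in the cytosol, was called in 6 lists (named after its values were seen). Of the 10 receptors 4 were called in some but not all lists, beside 31.1% of all coding starts.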

How the data were processed

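The 7 deposited H3K4me3 files are MACS2 narrowPeak lists, 1 per library; per the labels the authors used Trim Galore, Bowtie2, Picard and MACS2 on GRCm38, with no versions given. The study's methods name another pipeline, caller (SEACR) and build (GRCm39) and a count model on consensus peaks that was not used here. The deposited columns hold the fold of the summit over its local background, a ratio, the −log10 p-value and −log10 q-value, a display score (not used) and the summit position. The lowest −log10 p in a list was 5.01 to 5.08. Which weak peaks are listed may depend on the caller and the control depth, and neither was varied here.

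Gene starts were the RefSeq GRCm38.p6 boundaries of 21440 of 21887 protein-coding genes, with strand from the RefSeq promoter table (17492 genes) or, by symbol and chromosome, from GENCODE M39 (3948, Tlr4 and Tlr7 among them; 1 gene start was used per gene). The peak of highest fold within 1 kb was taken. Ranks average ties. Calls were compared by Fisher's exact test (two-sided), adjusted over starts called in at least 1 list, and percentile and width by the exact permutation test over 35 splits, adjusted over starts called in all 7 (scipy 1.17.1). Summit fragments were solved from fold and p under the MACS2 model (pseudocount 1, Poisson tail), and 100% of summits came out whole within a relative 5e-05. The solution scaled the libraries to 19.9%, 42.1% and 91.3% of their fragments in HFD-LSK and 9.58%, 31.2%, 37.5% and 22.6% in LFD-LSK, as MACS2 does where the control is smaller. That the IgG library was this control is inferred from the solution. Mean coverage is the background floor divided by that scale, so all multiples rest on it. Total read counts per library were not analysed here. Functions were tested on simulated data. Exons were excluded from printed sequence by exact match to GRCm39.

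The receptors and gene lists were chosen with earlier results of these data known. Named genes were the 10 receptors, Tlr11, Tlr12, pathway and sensor genes called in 1 diet alone or in no list, the 3 starts most like Tlr4 and cell type markers; others (Fam114a1 too) were named after their values were seen. Alternatives were window, summit position, q, equal list length, common limit, replicate block and leaving out each library, and, chosen after seeing the data, RefSeq transcript starts and leaving out Tlr6. One marker gene is not reported here.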

Additional observations from a re-analysis of the deposited data

How the results depend on the processing

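The count of receptors called in all HFD-LSK and no LFD-LSK lists was 1 (Tlr4). It stayed 1 in windows of 3 kb and 250 bp, with the summit required within 1 kb and at −log10 q of at least 5. It was also 1 at RefSeq transcript starts and without Tlr6, but neither setting could change the calls of Tlr4. Tlr4 has no RefSeq promoter window, so its gene start was kept, and Tlr6 was called in both diets. It was 0 with an equal number of strongest peaks per list and 0 at the common calling limit. The share of all coding starts with these calls was 0.154% in the main setting. It was 0.163% at 3 kb and by summit, 0.224% at 250 bp, 0.3125% at −log10 q of at least 5 and 0.154% at transcript starts. With an equal number of peaks and at the common limit it was 0.112%. Leaving out each library gave receptor counts of 1 to 2. Without HFD-LSK replicate 1 Tlr3 joined Tlr4, and the share of coding starts with the pattern rose from 0.154% to 1.48%. The count for LFD-LSK alone was 0 throughout. The count called in all 7 lists fell from 1 to 0 in the 250 bp window, by summit, at −log10 q of at least 5, at transcript starts and without Tlr6, whose window holds Fam114a1; leaving out a library kept it at 1. The count called in at least 1 list was 5, 3 at the common limit, 4 in the 250 bp window, where Tlr3 lost its calls, 4 without Tlr6, and 4 to 5 when a library was left out. For Tlr4, leaving out any library raised the exact p-value to 0.0667 or 0.1, since fewer lists cannot reach a lower one. The Tlr6 percentile difference (HFD-LSK minus LFD-LSK) was −12.6 to −32.9 points over the leave-one-out fits and the width difference 209 to 536 bp; neither passed in any setting; at −log10 q of at least 5 they had no value, since LFD-LSK replicate 1 lost its call.

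The diets share replicate numbers 1 to 3, and deviations of same-numbered libraries correlated at 0.177, 0.0178 and 0.0386 across starts. The labels give no pairing, and these values cannot tell whether same-numbered libraries shared a cohort. The study's methods state that its own peak comparison took batch and sample pairing into account. With the replicate block, the count of HFD-LSK-only receptors was 1 and of LFD-LSK-only receptors 0, and the Tlr6 differences were −23.5 percentile points and 264 bp, none changing a call. The lists held no summit below 29.8 to 101 multiples of mean coverage, so differences under these heights were not detectable.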

Other observations

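Of the 33 coding starts called in all HFD-LSK and no LFD-LSK lists, 5 (15.2%) were on the X chromosome, beside 3.15% of the starts called in at least 1 list and 0.877% of those called in all 7. Pgk1, Atp6ap1, Tsr2, Zmat1 and 2610002M06Rik were these 5, a count made after the values were seen and given with no test. None of the X-linked receptors was among them.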
